A study of Mus musculus with 4 samples.

Results

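Microglia, the resident immune cells of the brain, were followed through 9 marker genes chosen by symbol: C1qa, C1qb, C1qc, Csf1r, Cx3cr1, Tmem119, P2ry12, Aif1 and Trem2. All 9 were found among the 22328 genes of both deposited tables. The study compared hippocampi of mouse offspring whose dams had received more or less choline before birth, and in parallel cultures of a hippocampal cell line given more or less choline. The dams' feed, from embryonic day 9 to delivery, held choline chloride at 5 g/kg for the F1m-GCS offspring and at 1.1 g/kg for the F1m-CON offspring. After birth all offspring were kept on a basal diet, and behaviour was tested at 2 months. HT22, an immortalised mouse hippocampal neuronal line, was kept in high-glucose DMEM with fetal bovine serum and antibiotics, and for 48 h with choline chloride at 5 µM (CON) or 70 µM (SUP). Each of the 4 groups was 1 poly(A) RNA library, so differences are given with counting error and without any measure of the spread between animals or cultures. The labels give neither strain, nor age at RNA extraction, nor whether a hippocampus library was made from 1 animal or from a pool.

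In the tissue, microglia survey their surroundings with fine processes and remove debris and synapses. C1qa, C1qb and C1qc encode the chains of C1q, the recognition part of the first complement component, which in brain is made mostly by microglia and can tag synapses. CSF1R is the receptor on which microglia depend for survival, with CSF1 and IL34 as its ligands. CX3CR1 binds fractalkine (Cx3cl1) from neurons, P2RY12 senses ADP released at sites of injury, and TREM2 senses lipids and signals through the adaptor TYROBP. TMEM119 is a membrane protein of unsettled function, and Aif1 encodes IBA1, the actin-bundling protein used to stain microglia.

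Part of the group is a compact gene cluster, and promoters were searched for some members. The C1q genes lie side by side on the minus strand of chromosome 4 in mm10, C1qb from 136880129 to 136886187, C1qc from 136889804 to 136893065 and C1qa from 136895917 to 136898803. They span 18675 bases with no other gene of the table between them. Cx3cr1 lies on chromosome 9 (119901616 to 120068283), P2ry12 on chromosome 3 (59216271 to 59262831), Tmem119 on chromosome 5 (113793729 to 113800516), and Aif1 (35170991 to 35176068) and Trem2 (48346401 to 48354147) on chromosome 17. Promoters of C1qa, Csf1r and Tmem119 were not searched. RefSeq promoters (GRCm38.p6, the assembly behind mm10) were used for the other 6 of the 9 members. Their 250 bases before the start site were searched on both strands for AGGAAGT, a core to which PU.1 (Spi1), the master transcription factor of the myeloid lineage, and other ETS factors bind. It was found in 3 of the 6, C1qb, C1qc and P2ry12, and in 7.69% of all 32851 promoters of the table. The motif was chosen with the sequences and values in view. The window of C1qc runs into an exon of another annotated transcript and is not shown. The windows of C1qb and P2ry12 are shown as those with the motif, next to that of Trem2, a member without it that was well read in HT22 cells. The other searched members without the motif had fewer reads in HT22 CON and SUP, 5 and 17 for Cx3cr1 and 21 and 10 for Aif1. A relation of the motif to HT22 levels was not tested. Each runs 5′ to 3′ on the gene's strand up to the base before the start site, and capitals mark the motif or its reverse complement ACTTCCT.
C1qb (chr4:136886201-136886450, minus strand): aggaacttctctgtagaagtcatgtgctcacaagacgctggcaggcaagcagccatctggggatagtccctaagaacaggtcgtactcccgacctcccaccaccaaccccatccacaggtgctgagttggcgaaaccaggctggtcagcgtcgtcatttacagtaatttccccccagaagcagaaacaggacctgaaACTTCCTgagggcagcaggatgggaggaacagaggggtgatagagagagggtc
P2ry12 (chr3:59262986-59263235, minus strand): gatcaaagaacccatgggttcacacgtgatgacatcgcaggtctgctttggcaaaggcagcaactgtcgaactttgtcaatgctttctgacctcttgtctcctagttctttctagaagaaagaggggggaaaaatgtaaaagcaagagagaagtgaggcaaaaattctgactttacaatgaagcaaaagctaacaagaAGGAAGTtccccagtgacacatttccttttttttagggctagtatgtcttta
Trem2 (chr17:48346151-48346400, plus strand, no match): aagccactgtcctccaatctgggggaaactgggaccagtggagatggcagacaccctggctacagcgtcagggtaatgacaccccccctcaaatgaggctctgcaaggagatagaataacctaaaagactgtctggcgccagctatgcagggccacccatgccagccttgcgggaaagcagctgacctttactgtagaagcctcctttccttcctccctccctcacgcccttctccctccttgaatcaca
In C1qb the motif began 53 bases and in P2ry12 52 bases before the start site, on opposite strands, and in C1qc 195 bases before it.

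Reads in genes numbered 31175015 and 30265820 in the hippocampus libraries and 18305096 and 13192007 in HT22 CON and SUP. Levels of different genes are compared in the authors' RPKM, reads per kilobase of coding length and per 1000000 mapped reads. Of the mapped reads 79.4% and 79.0% lay in genes in F1m-CON and F1m-GCS, 72.9% in HT22 CON and 63.1% in HT22 SUP. The RPKM of a gene in SUP is therefore lower against CON than its scaled reads in genes are. Intervals are 95% counting intervals, exact Poisson for an RPKM and exact binomial for a ratio of 2 libraries. They cover counting error only and hold no variation between animals or cultures. The tissue label was checked on 13 genes of hippocampal principal neurons, all of which had at least 585 reads in both hippocampus libraries, among them Prox1 of granule cells with 5186 and 5160. The HT22 libraries are labelled as hippocampal neurons, but the neuron marker Rbfox3 had 15 reads in CON and 33 in SUP, against 8635 and 8463 in hippocampus. Summed over 15 neuron genes, CON held 0.803% and SUP 1.88% of the level in hippocampus.

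All 9 members were expressed in hippocampus, and the C1q chains stood highest. In F1m-CON, C1qa had 1433 reads and an RPKM of 49.5, C1qb 1460 reads and 48.8, and C1qc 1382 reads and 47.5. The intervals of these 3 RPKM values overlapped, so the chains, which the C1q protein holds in equal numbers, could not be ordered. Cx3cr1 followed with 1796 reads and an RPKM of 43.0, then P2ry12 with 1497 reads and 36.5. Csf1r had the most reads, 3200, on the longest coding sequence, and an RPKM of 27.8. Tmem119 had 746 reads and an RPKM of 22.5, Trem2 443 reads and 15.1, and Aif1, the lowest, 161 reads and 9.24 (7.87 to 10.8). From C1qc down to Aif1 each RPKM interval lay clear of its neighbours.

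The order of the 9 RPKM values was the same in F1m-GCS, with a wider gap inside the C1q cluster. C1qa had 1349 reads and an RPKM of 47.7 (45.2 to 50.4), C1qb 1327 reads and 45.5, and C1qc 1102 reads and 38.8 (36.6 to 41.2). The highest chain was 1.23 times the lowest in F1m-GCS and 1.04 times in F1m-CON. Cx3cr1 had 1473 reads and an RPKM of 36.1, and its interval and that of C1qc overlapped here. P2ry12 had 1365 reads, Csf1r 2803, Tmem119 739, Trem2 437 and Aif1 139. Aif1, with the fewest reads, has the widest intervals of the group.

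**Figure D1:**
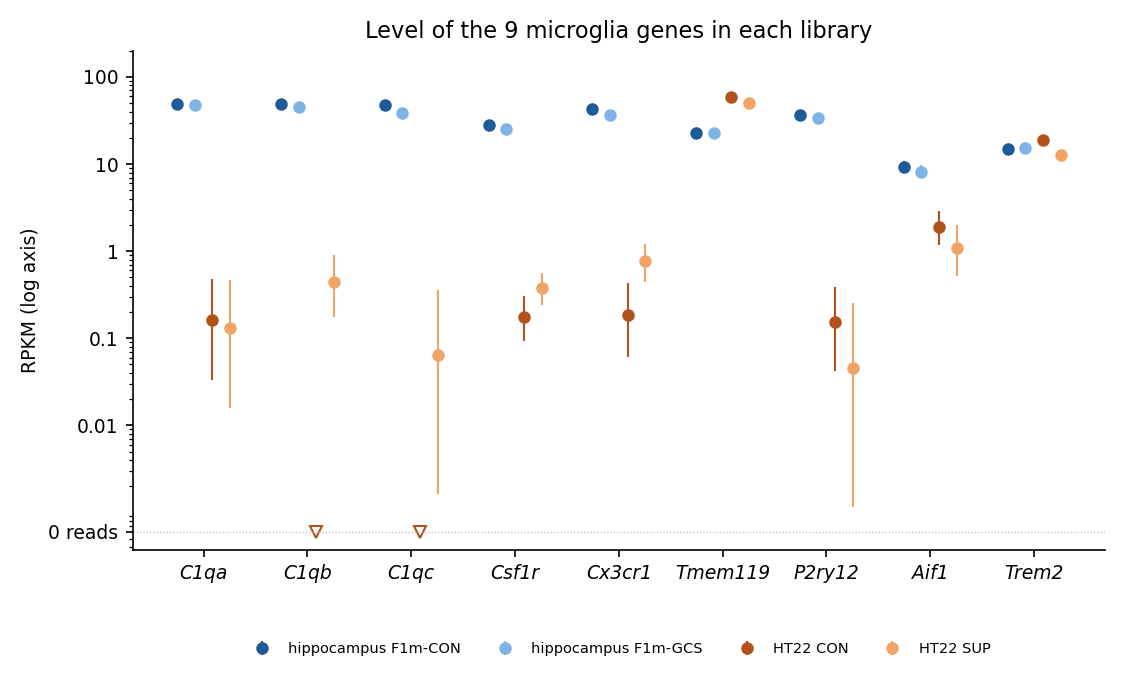
RPKM (log axis) of each member in the 4 libraries, points with 95% counting intervals, and open triangles for libraries with 0 reads. In hippocampus the values run from 8.18 for Aif1 to 49.5 for C1qa, while in HT22 cells Tmem119 stands above its tissue values, Trem2 at 18.8 in CON and 12.7 in SUP stands on either side of them, and the C1q chains, Csf1r, Cx3cr1 and P2ry12 stay below 1.

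Between the hippocampus libraries no member differed by 1.5-fold, and the larger differences pointed to fewer reads in F1m-GCS. Of the 9 members 7 had a log2 ratio of F1m-GCS over F1m-CON below 0, as did 51.2% of the 13392 genes with at least 50 reads in 1 of these libraries, here called measured. None was at least 1.5-fold higher (1.81% of measured genes were) or lower (0.911% were). The median over the members was -0.08, against -0.0042 over all measured genes. Summed over the group, 12118 reads in F1m-CON and 10734 in F1m-GCS gave a log2 ratio of -0.12 (-0.16 to -0.08), a difference in level of -8.03%. In bulk tissue with 1 library per group, fewer microglia, less RNA per cell and variation between animals cannot be told apart.

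C1qc, the chain whose gene lies between the other C1q genes, had the lowest ratio, -0.27 (-0.39 to -0.16), at percentile 5.94 of measured genes. C1qa had -0.03 (-0.14 to 0.08), an interval that did not overlap that of C1qc, and C1qb had -0.08 (-0.19 to 0.02), which overlapped both. Among the receptors, Cx3cr1 had -0.23 (-0.33 to -0.13) and Csf1r -0.14 (-0.21 to -0.06), both with intervals below 0. P2ry12 had -0.08 (-0.19 to 0.03). Trem2 had 0.03 (-0.16 to 0.23) and Tmem119 0.04 (-0.11 to 0.19), the only ratios of the 9 above 0. Aif1 had -0.16 (-0.50 to 0.18) on its 161 and 139 reads. Counting error alone therefore covers the difference in 6 of the 9 members, and leaves C1qc, Cx3cr1 and Csf1r below 0.

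Ratios in these libraries moved with gene length, from a median of -0.09 for the shortest of 10 coding length groups up to 0.11 for the longest, and the C1q chains are short. With the medians of genes of like length and GC content subtracted, C1qc had -0.19, Cx3cr1 -0.16 and Csf1r -0.16, while C1qa had 0.05 and C1qb 0.0018, on the other side of 0. P2ry12, the member lowest in GC content, had -0.17 and the median over the members was -0.03. The authors' deposited table lists a false discovery rate below 0.05 for 3 of the 9 members, C1qc, Cx3cr1 and Csf1r, and for 14.2% of all genes. With 1 library per group that rate holds no spread between animals. The library kit does not mark strand, and the treatment of reads in bases shared by 2 genes is not stated. Csf1r (chromosome 18, 61105572 to 61132149) shares in GENCODE M21 15.1% of its exon bases with Hmgxb3 on the opposite strand, Cx3cr1 1.73% and P2ry12 0.353% with other genes, and the other 6 members none.

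**Figure D2:**
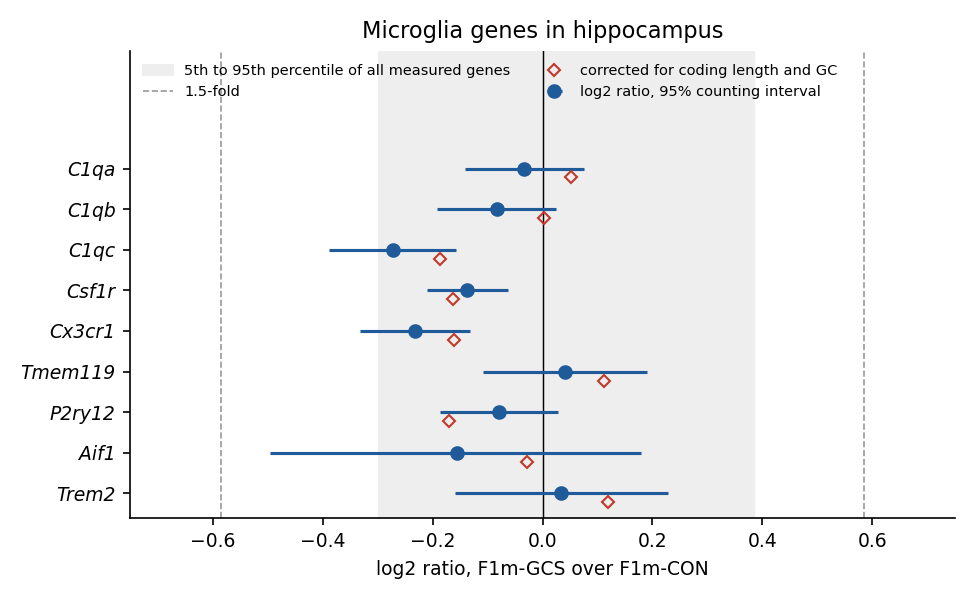
Log2 ratio of F1m-GCS over F1m-CON for each member (filled points with 95% counting intervals, and diamonds after correction for coding length and GC content), with the 5th to 95th percentile range of all measured genes in grey and dashed lines at 1.5-fold. All 9 points lie between -0.27 and 0.04, inside the dashed lines, and the intervals of C1qc, Csf1r and Cx3cr1 do not reach 0.

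Other genes of the cell type were spread on both sides of 0. Of 22 measured homeostatic microglia genes outside the group 14 had ratios below 0, with a median of -0.04 and none beyond 1.5-fold. Ctss, a lysosomal protease gene, had -0.25 (-0.33 to -0.16). Cst3, which encodes the protease inhibitor cystatin C and is also expressed by other brain cells, had -0.19 (-0.22 to -0.17). Of 19 measured pan-myeloid genes 11 lay below 0, with a median of -0.07 (-0.04 with length and GC medians subtracted), and 1 was 1.5-fold lower, the inhibitory Fc receptor gene Fcgr2b at -0.68 (-1.17 to -0.24). Cd37 had 0.42 (0.11 to 0.74) and Ptprc, which encodes CD45, 0.38 (-0.07 to 0.85). The integrin genes of complement receptor 3 had -0.06 (-0.20 to 0.07) for Itgam and -0.35 (-0.65 to -0.06) for Itgb2. Of 17 measured activation genes 13 lay below 0, with a median of -0.17, and 1 was 1.5-fold lower, the MHC class II gene H2-Ab1 at -0.59 on 76 and 48 reads. Cd52 had -0.52 and the invariant chain gene Cd74 -0.51. On the other side of 0, Spp1, which encodes osteopontin, had 0.44 (0.20 to 0.69) and Gpnmb 0.42 (0.10 to 0.74). With length and GC medians subtracted the activation median was -0.09, and Cst3 had -0.08.

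Medians of the partner lists lay between -0.08 and 0.03, against -0.08 for the members. With length and GC medians subtracted they lay between -0.10 and 0.03, against -0.03 for the members. Tyrobp, the adaptor of TREM2, had 523 and 431 reads and -0.22 (-0.41 to -0.04), or -0.11 with length and GC medians subtracted, where Trem2 itself had 0.03 and 0.12. The ligand genes of CSF1R had -0.07 (-0.18 to 0.05) for Csf1 and 0.12 (0.01 to 0.23) for Il34. Cx3cl1, the ligand of CX3CR1, had 0.04 (0.01 to 0.07). Of 13 measured signalling partners 6 lay below 0, among them the guanine exchange factor gene Vav1 at -0.51, and 7 above, among them Cbl, a ubiquitin ligase that acts on CSF1R, at 0.34. Their median was 0.03. Among 9 measured myeloid transcription factors the median was -0.08 (-0.04 with length and GC medians subtracted), with Spi1 at -0.49 (-0.86 to -0.14) on 163 and 111 reads and Irf8 at -0.08 (-0.38 to 0.22). Complement genes other than C1q had a median of -0.01 over 12 measured, and of -0.10 with length and GC medians subtracted. C1ra, a protease of the C1 complex, was the 1 beyond 1.5-fold, at -0.79 on 59 and 32 reads, and C4b had -0.11 (-0.27 to 0.05). Of 12 measured chemokine and purine genes 1 was 1.5-fold lower, the adenosine receptor gene Adora3 at -1.01 on 50 and 23 reads, with a median of -0.03 for the list and of -0.0058 with length and GC medians subtracted.

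Marker genes of cells other than microglia were also compared between the hippocampus libraries, and those of choroid plexus differed most. Of 12 choroid plexus genes 12 lay below 0, with a median of -0.44, and 3 were 1.5-fold lower, Aqp1, Steap1 and Kcnj13. Their summed level was 3048 reads per 1000000 in F1m-CON and 2545 in F1m-GCS. The medians were -0.11 for astrocyte, -0.06 for oligodendrocyte, -0.02 for neuron, -0.06 for principal neuron and 0.05 for endothelial genes, with no gene of these lists beyond 1.5-fold. With length and GC medians subtracted these medians were -0.07, -0.01, 0.01, -0.08 and 0.02, and that of the choroid plexus genes -0.40. The summed level of the 9 microglia genes was 389 and 355 per 1000000. Border macrophage genes were sparse: 3 of 14 were measured, with a median of -0.03 (-0.09 with length and GC medians subtracted). Maf gave 866 of the list's 1653 reads in F1m-CON and 773 of 1506 in F1m-GCS, and the summed level of the list was 53.0 and 49.8. Blood leukocyte genes had 26.7 and 24.8, of which Ly6c1, also an endothelial gene and the 1 of 19 measured, at -0.07 (0.06 with length and GC medians subtracted), gave 714 of 832 and 656 of 752 reads. The T cell gene Cd3e had 0 and 1 reads. The part of these other cell types in the members' ratios was not tested.

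**Figure D3:**
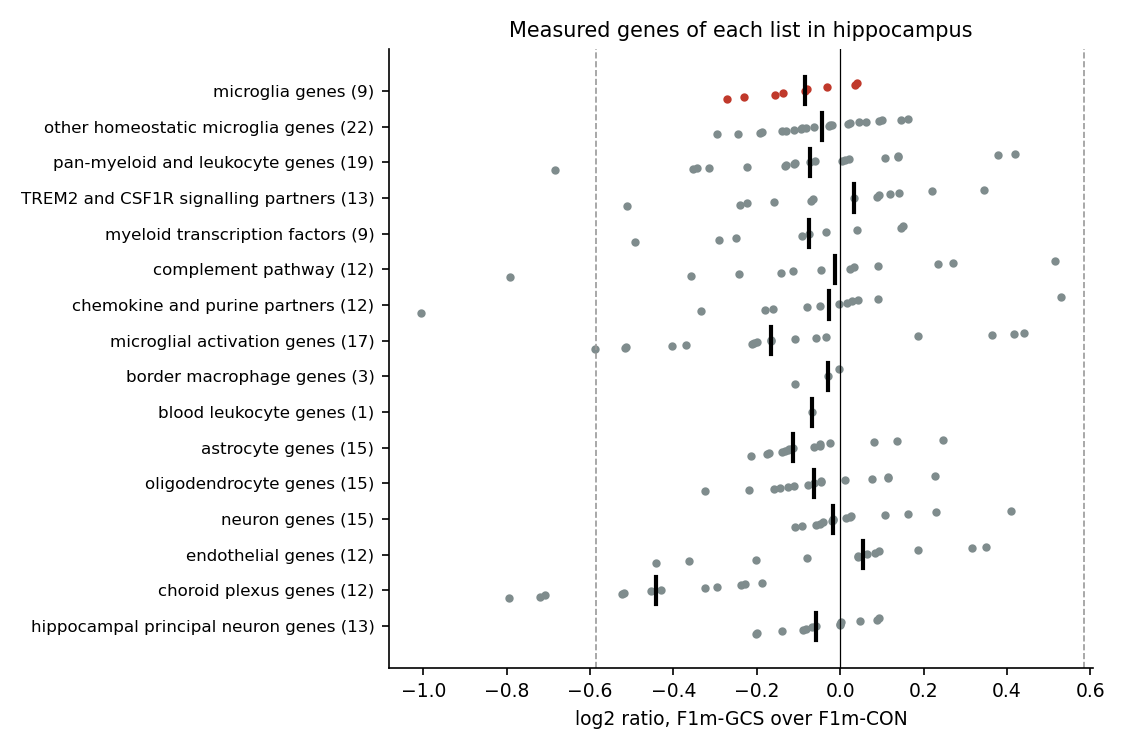
Log2 ratio of F1m-GCS over F1m-CON for each measured gene of each list (points, number of genes in brackets), with a bar at the median and dashed lines at 1.5-fold. The 9 members (red) have a median of -0.08, and the choroid plexus genes lie lowest, all 12 below 0 with a median of -0.44.

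In HT22 cells the 9 genes separated by a wide margin. In the CON culture 6 of 9 stood below 1% of the hippocampus level, as did 16.3% of the 13820 genes with a mean of at least 1 read per 1000000 in hippocampus. Tmem119 and Trem2 stood above the hippocampus level, as did 45.2% of these genes, counted at equality or above. In SUP 3 of 9 stood below 1%, against 11.3% of genes, and 1 of 9, Tmem119, at or above the hippocampus level, against 44.3%. Tmem119 had 1262 reads in CON and 875 in SUP, an RPKM of 59.6 and 49.7, against 22.5 and 22.9 in hippocampus. By scaled reads in genes, Tmem119 stood at 259% (240 to 280%) of the summed hippocampus libraries in CON and 252% (231 to 274%) in SUP. By RPKM it stood at 264% and 220% of F1m-CON. Outside the brain Tmem119 is known from bone-forming cells. Trem2 had 355 and 199 reads and an RPKM of 18.8 and 12.7. By scaled reads it stood at 123% (109 to 139%) in CON and 96.5% (82.3 to 113%) in SUP. By RPKM it stood at 125% and 84.3% of F1m-CON. Aif1 was intermediate, with 21 and 10 reads, by scaled reads at 21.4% in CON and 14.2% (6.75 to 26.5%) in SUP. Tmem119, Trem2 and Aif1 supplied 98.5% of the group's reads in CON and 95.5% in SUP.

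The other 6 members were at trace level in both cultures. C1qa had 3 and 2 reads, C1qb 0 and 7, and C1qc 0 and 1. With a floor of 3 reads in place of 0, CON would stand at 0.328% of the hippocampus level for C1qb and 0.369% for C1qc. The counting intervals of these counts of 0 reached up to 0.404% and 0.454%. P2ry12 had 4 and 1 reads, 0.427% and 0.149% of the hippocampus level. Cx3cr1 had 5 and 17, 0.467% (0.151 to 1.09%) and 2.22% (1.29 to 3.56%), and Csf1r 13 and 23, 0.661% (0.352 to 1.13%) and 1.64% (1.04 to 2.46%). How many of the Csf1r reads lay in the exon bases it shares with Hmgxb3 is not known. Spi1 had 0 reads in both cultures, where 3 reads would give an RPKM of 0.146 in CON and 0.175 in SUP, against 5.07 and 3.54 in the hippocampus libraries.

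**Figure D4:**
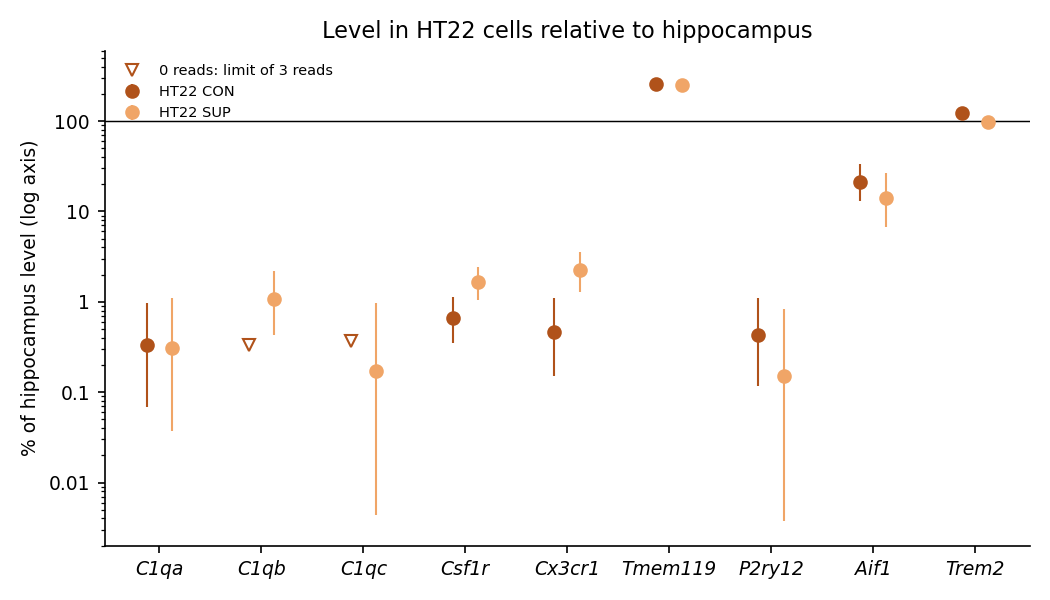
Level of each member in HT22 CON and HT22 SUP as a percentage of its level in the summed hippocampus libraries (log axis), with 95% counting intervals, and open triangles at the limit of 3 reads where a library had 0. Tmem119 stands near 250% in both cultures, with values of 259% and 252%, Trem2 near the line at 100%, Aif1 between 14.2% and 21.4%, and the other 6 genes at or below 2.22%.

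The partners of the members were split between tissue and cell line. Trem2 was read in HT22 cells without its adaptor, since Tyrobp had 0 reads in both cultures, where 3 reads would give an RPKM of 0.346 in CON and 0.416 in SUP, against 38.6 and 32.6 in hippocampus. Other pan-myeloid genes went both ways in the cell line. Ptprc, the general leukocyte gene, had 1 and 0 reads and Itgam 1 and 5, while Cd53, a leukocyte tetraspanin gene, had 273 and 142 reads, 143% and 104% of the hippocampus level. Cd68, a lysosomal gene of macrophages, stood at 97.0% and 95.2%, and Cd14 and Cyba stood over 10 times above hippocampus, with 762 and 530 reads for Cd14 and 1337 and 947 for Cyba. Itgb2 had 91 and 36 reads. Summed over its 20 genes the pan-myeloid list stood at 45% and 43.1% of hippocampus, but this sum rests on few genes. Only 5 of the 20, Cd53, Cd68, Cd14, Cyba and Itgb2, had at least 50 reads in 1 of the cultures. Cyba and Cd14 gave most of the list's 2674 reads in CON and 1829 in SUP. The myeloid transcription factor gene Irf8 had 0 and 1 reads. By scaled reads Csf1 had a log2 ratio of SUP over CON of 0.06 (0.01 to 0.12). Its RPKM was 147 and 132 in HT22 cells and 19.0 and 17.9 in hippocampus, while its receptor gene Csf1r had 0.176 and 0.375 against 27.8 and 24.9. Il34, the other ligand gene, had 12.8 and 10.8 in HT22 and 44.8 and 48.1 in hippocampus. Cx3cl1 followed the tissue, with 419 and 426 in hippocampus and 3.32 and 4.91 in HT22.

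Among complement genes, the C1q chains stood higher in hippocampus, and the C1 proteases and C3 in HT22 cells. In hippocampus the C1q chains were well read, and the C1 proteases were low, with an RPKM of 0.708 and 0.393 for C1ra and 0.306 and 0.363 for C1s. C3, the central component, had 0.199 and 0.120, or 39 and 23 reads. In HT22 cells, with 3 and 10 reads over all C1q chains, C1ra had 41.2 and 25.7, C1s 72.8 and 48.9, and C3 110 and 77.5 (13742 and 8083 reads). C4b had 3.39 and 3.09 in hippocampus and 2.58 and 1.39 in HT22 cells. The complement inhibitor gene Serping1 had 5.95 and 5.33 in hippocampus and 0.998 and 0.821 in HT22. C3ar1, the receptor of the C3a fragment, had 1.24 and 1.26 in hippocampus and 0.916 and 0.434 in HT22. C1ra, C1s and C4b have close relatives in the mouse genome among which counting could split reads, so their levels are uncertain.

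**Figure D5:**
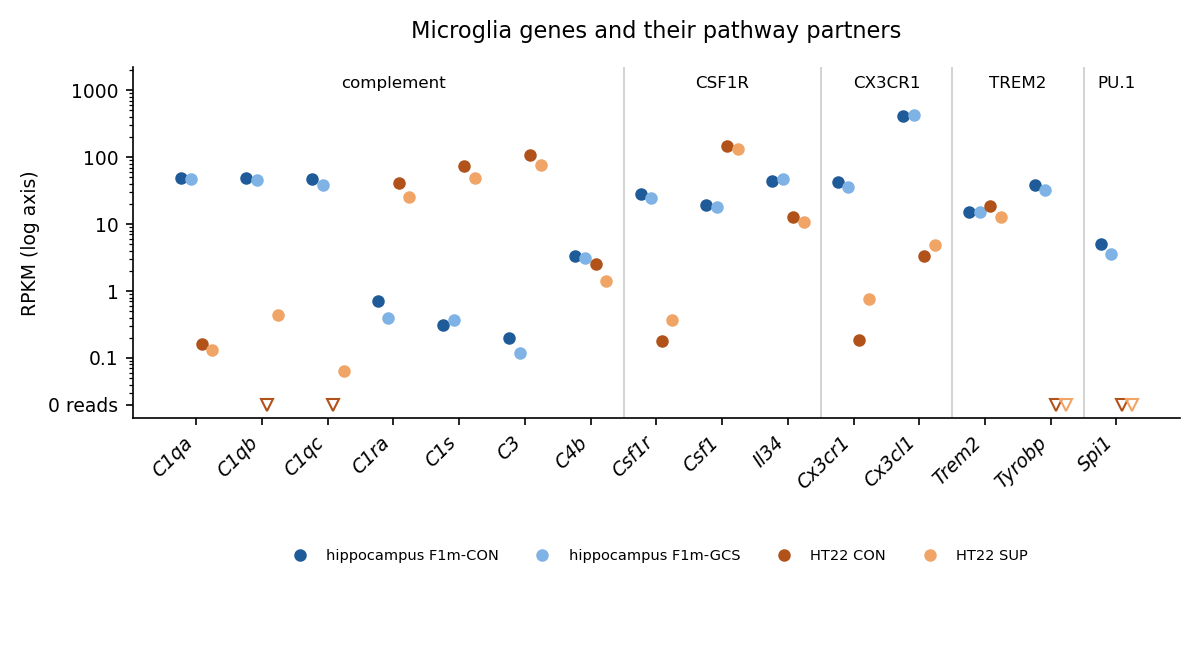
RPKM (log axis) of members and of their ligands, adaptor, complement partners and the PU.1 gene Spi1 in the 4 libraries, with open triangles for 0 reads. Csf1 and the complement genes C1ra, C1s and C3 are higher in HT22 cells, Cx3cl1, Il34 and the C1q chains in hippocampus, and Tyrobp and Spi1 have 0 reads in both HT22 libraries.

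Between the cultures only Tmem119 and Trem2 had at least 50 reads, and neither was 1.5-fold higher in SUP (5.13% of 10854 measured genes were) or lower (2.93% were). Both had ratios below 0, as did 58.1% of measured genes. The log2 ratio of SUP over CON was -0.04 (-0.17 to 0.08) for Tmem119 and -0.35 (-0.61 to -0.10) for Trem2, against a median of -0.05 over all measured genes. The authors' deposited table lists a false discovery rate below 0.05 for 0 of the 9 members and for 9.55% of all genes in this comparison. Its log2 fold changes for some members, given below, differ from the ratios of the counts. These rates may therefore not describe the counts used here. Of the trace genes, C1qb had 0 and 7 reads. Against a floor of 3 reads in CON it was 3.26-fold higher in SUP before counting error on the 7 reads. The counting interval of its ratio reached down to 2.02-fold. Cx3cr1 had a log2 ratio of 1.83 (0.75 to 4.04) and Csf1r 1.17 (0.27 to 2.41). The authors' deposited table lists a log2 fold change of 1.22 for C1qb, and smaller values than these for Cx3cr1, 0.63, and Csf1r, 0.41. P2ry12, with 4 and 1 reads, stood in SUP at 0.350 times the CON level by the plain ratio of scaled reads (0.0071 to 3.53), and its log2 ratio with the prior count used for the other genes was -0.76. Its interval includes equality, as does that of Aif1, at -0.52 (-1.84 to 0.56). For C1qa and C1qc, with 3 reads or fewer in both cultures, no ratio is given.

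Summed over C1qa, C1qb, C1qc, Csf1r, Cx3cr1 and P2ry12, a set chosen after its values were seen, 25 reads in CON and 51 in SUP gave a log2 ratio of 1.43 (0.80 to 2.27). The CON sum stood at 0.378% (0.245 to 0.558%) and the SUP sum at 1.08% (0.803 to 1.42%) of hippocampus. Other tissue genes at trace level in HT22 also had higher summed levels in SUP. Over 727 genes, none of them a member, whose level was at least 50 reads per 1000000 in hippocampus and lower than 1/100 of it in the cell line, CON held 0.340% and SUP 0.810% of the tissue level, a log2 ratio of 1.25 (1.22 to 1.28). For the 15 neuron genes these shares were 0.803% and 1.88%. Their part in the result was not tested.

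The genes whose pattern over the 4 libraries was most like the median of the group were Gng4, Sdk2, Mansc1, Coro1a and Fam211b. Likeness was measured as the Euclidean distance of centred log2 levels, among 10772 genes with at least 200 reads in both hippocampus libraries, and these 5 lay between 0.116 and 0.141. Coro1a, an actin regulator of leukocytes, had 3386 and 3102 reads in hippocampus and 14 and 26 in HT22. Gng4, a G protein subunit, had 1417 and 1294 reads in hippocampus and 5 and 11 in HT22. Among the members Csf1r lay nearest the median pattern, at 0.157, and Tmem119 farthest, at 7.76, followed by Trem2 at 6.58.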

How the data were processed

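Adapter and quality trimming (Trim Galore), alignment to mm10 (TopHat2), counting per gene (HTSeq) and the group comparison (edgeR) were done by the authors, per the series' design text. The submitters' processing notes name CASAVA 1.8 too, with no role, and no version of the other tools. The counts are the authors' raw reads per gene and the RPKM values are the authors', per the file headers. The deposited log2 fold changes, p-values and false discovery rates are the authors' edgeR output. The RPKM values could be recomputed from counts, length and the uniquely mapped total in the header for 100% of genes. Of protein-coding lengths 99.8% were multiples of 3, so they are called coding lengths.

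Groups were taken from source names and, for HT22, from titles. Counts were scaled by TMM (edgeR 4.0.16, R 4.3.3), over 2 libraries for a ratio within tissue or cells (factors 0.996 to 1.00) and over 4 for HT22 against hippocampus (0.954 to 1.05). Log2 ratios used a prior count of 2. Ratio intervals were Clopper-Pearson, and a library at 0 was given a floor of 3 reads. With 1 library per group nothing was tested. The named genes were the members, their listed partners, up to 3 genes per list with ratios farthest from 0, and the 5 most alike in pattern (log2 of counts per 1000000 plus 0.1). Genes named beyond these were chosen after their values were seen, namely Prox1, Rbfox3, Cd3e, Spp1, Gpnmb, Cd53, Cd68, Cd14 and Cyba, and Ptprc for its HT22 reads. The members, lists and tests were chosen with earlier results of these data known. One gene that this rule names is not reported here. Adora3 has 2 identifiers in the tables, and both were kept. The correction subtracts medians of 10 length and then 5 GC groups (GENCODE M21 transcripts). Functions were tested on simulated data. DESeq2 1.42.0 size factors, total counts, other prior counts and read minimums were alternatives. Python 3.11.15 and scipy 1.17.1 were used.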

Additional observations from a re-analysis of the deposited data

Results flagged for a closer look

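For 2 members the ratio pointed in opposite directions in tissue and in culture, each with a counting interval that excluded 0. Csf1r had a log2 ratio of -0.14 (-0.21 to -0.06) in hippocampus, F1m-GCS over F1m-CON, and 1.17 (0.27 to 2.41) in HT22 cells, SUP over CON, on 13 and 23 reads. Its exons share 15.1% of their bases with Hmgxb3 on the opposite strand, and the part of reads from there was not tested. Cx3cr1 had -0.23 (-0.33 to -0.13) in hippocampus and 1.83 (0.75 to 4.04) in HT22 cells, on 5 and 17 reads. The difference between tissue and culture was not tested, since each group is 1 library. The authors' deposited table lists the same 2 hippocampus values to 2 decimals but smaller log2 fold changes for HT22, 0.41 for Csf1r and 0.63 for Cx3cr1, with false discovery rates of 1.0 and 0.735. The reason for the gap was not tested. In HT22 cells the sum over 727 other genes at trace level had a log2 ratio of 1.25 (1.22 to 1.28), and its part in the result was not tested.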

How the results depend on the processing

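In hippocampus the ratio of the summed reads lay between -0.13 and -0.09 over the alternatives run and the median between -0.09 and -0.03, both counts at 1.5-fold stayed at 0, and each of the 9 single ratios stayed within its counting interval. C1qa and C1qb crossed 0 once length and GC medians were subtracted. In HT22 cells the sum over all 9 members rests on Tmem119 and Trem2. Its log2 ratio was -0.07, and 1.43 without Tmem119, Trem2 and Aif1, an alternative chosen after seeing the data. Its level was 22.2% of hippocampus in CON and 21.2% in SUP, 24.4% and 23.1% with total counts, and 0.378% and 1.08% without these 3 genes. No paired analysis was possible because each group holds 1 library. For the trace genes depth is the limit, with at most 23 reads per gene.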
